A study of Mus musculus with 6 samples.

Results

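The miR-181 family of mouse microRNAs (miRNAs) was followed through 6 small RNA libraries of spinal cord. The family was taken as the 4 rows of the deposited count table named mmu-miR-181a-5p, mmu-miR-181b-5p, mmu-miR-181c-5p and mmu-miR-181d-5p (mmu stands for mouse and is left off below), out of 1482 rows in all. These 4 are the 5p arms, the strands cut from the 5′ side of their hairpins, and their rows were found by name. The 6 rows for the 3p arms of the same hairpins were read beside them. Per the deposited labels, the 3 libraries labelled control came from mice with a laminectomy at T10 and no cord injury. The 3 libraries labelled SCI (spinal cord injury) are described as from mice with the same laminectomy and then a moderate contusion. The contusion is described as made by dropping a weight of 10 g from 20 mm on the exposed cord. Both groups thus share the laminectomy, and the labels name no genetic change or drug. Per the design text, the mice were killed on day 2 and a cord segment of about 1 cm at the operated level was collected, so each library mixes all its cell types. The p-values set a difference between the groups against the spread between these libraries.

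A miRNA guides an Argonaute protein to messenger RNAs that pair with its seed, bases 2 to 8, and lowers their output. Members of a seed family can therefore recognise overlapping sets of targets although they come from different genes. miR-181a is best known from developing T lymphocytes, where it tunes the sensitivity of the T cell receptor, and the family is also expressed in neurons and glia. In the nervous system it has been studied in ischaemia and inflammation, with the chaperone Hspa5 and members of the Bcl2 family among its reported targets.

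The mature sequences show what joins and what separates the members. All 10 miR-181 rows of the table had a mature sequence in RefSeq (GRCm38.p6). The 5p arms are printed 5′ to 3′ with the seed in capitals.
miR-181a-5p: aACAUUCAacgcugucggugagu
miR-181b-5p: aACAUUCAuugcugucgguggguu
miR-181c-5p: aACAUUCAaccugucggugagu
miR-181d-5p: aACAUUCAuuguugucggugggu
The 4 share the seed ACAUUCA, and no other row of the table with a RefSeq sequence had it (1175 rows had one). Counted from base 1 of the first-named miRNA, miR-181b-5p and miR-181d-5p differ by the substitution C12U and by 1 extra base at the end of miR-181b-5p. miR-181c-5p lacks 1 base of miR-181a-5p, placed at position 11 by the alignment, and has no substitution against it. miR-181a-5p and miR-181b-5p differ by A9U, C10U and A21G and by 1 extra base at the end of miR-181b-5p, all outside the seed. How the authors assigned reads that match more than 1 of these sequences is not stated in the labels or the processing notes, so the split between miR-181b-5p and miR-181d-5p rests on 1 inner base.

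The 4 members come from 6 hairpins in 3 clusters, with positions given on GRCm38, the assembly that mm10 denotes. Mir181a-1 (chr1:137966455-137966541) and Mir181b-1 (chr1:137966639-137966718) lie 97 bases apart on the plus strand of chromosome 1, in an exon of the long noncoding RNA A430106G13Rik in GENCODE M21. Mir181a-2 (chr2:38852735-38852810) and Mir181b-2 (chr2:38853830-38853918) lie 1019 bases apart on the plus strand of chromosome 2, opposite an intron of Nr6a1, a gene for an orphan nuclear receptor. Mir181c (chr8:84178873-84178961) and Mir181d (chr8:84178716-84178787) lie 85 bases apart on the minus strand of chromosome 8, within an intron of Nanos3 on the same strand. Both copies of miR-181a give the identical 5p arm, and so do both copies of miR-181b, so a 5p read cannot be placed on chromosome 1 or 2. Their 3p arms do differ between the copies, and these are printed with bases 2 to 8 in capitals because they are what distinguishes the loci.
miR-181a-1-3p: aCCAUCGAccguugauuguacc
miR-181a-2-3p: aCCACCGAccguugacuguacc
miR-181b-1-3p: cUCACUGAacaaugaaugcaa
miR-181b-2-3p: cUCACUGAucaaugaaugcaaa
miR-181c-3p: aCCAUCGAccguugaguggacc
miR-181a-2-3p differs from miR-181a-1-3p by U5C and U16C, and miR-181c-3p differs from it by U16G and U19G.

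Total counts ran from 5568491 to 8889977 per library. The levels below are in CPM, read counts set to a common library total, after scaling by TMM, a method that aligns libraries on the bulk of their rows, and they hold no term for length, which is 21 to 24 nucleotides for the printed arms. Control-labelled library 3 stood apart from the others of its group, with Spearman's rho over the tested rows of 0.967 and 0.968 against libraries 1 and 2 and 0.987 between these. miRNAs known to rise after cord injury ran against the labels. All 9 tested rows of that list were lower in the SCI-labelled libraries by edgeR, with no overlap between groups. Of all 614 tested rows, 23.1% were lower and 51.3% did not overlap in either direction. The list was written with earlier results of these data known, and it shares rows with the myeloid and pan-leukocyte list read further below. miR-21a-5p, widely reported to rise after tissue injury, averaged 12003 ± 774 CPM over the SCI-labelled group against 100083 ± 27262 CPM over the control-labelled group (SD, n = 3 each; edgeR adjusted p = 7.02e-05). The neutrophil miRNA miR-223-3p averaged 8.45 ± 2.54 against 114 ± 18.6 CPM (SD, n = 3 each; edgeR adjusted p = 7.02e-05). The columns of the SCI-labelled samples also carry names that begin with Normal. Directions are therefore those of the labels as deposited, and which group was injured is not settled by these files.

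Across the family, 1 of the 4 members differed between the groups. miR-181d-5p was higher in the SCI-labelled libraries by edgeR's quasi-likelihood test, and miR-181a-5p, miR-181b-5p and miR-181c-5p did not pass it. Of all 614 rows tested, 39.4% passed in either direction and 16.3% were higher, and with 4 members a single call is read neither as more nor as less than that background. The median log2 change was 0.19 over the 4 members and -0.07 over all tested rows.

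miR-181a-5p, the most abundant member, ranked between 27 and 36 among all rows in each library. It was at 5136, 5871 and 7053 CPM in control-labelled libraries 1, 2 and 3. In SCI-labelled libraries 1, 2 and 3 it was at 6029, 5818 and 7093 CPM. The groups overlapped over most of their range, and library 3 was the highest of each group. Means were 6020 ± 967 and 6313 ± 683 CPM (SD, n = 3 each), a log2 change of 0.07 with a 95% interval of -0.36 to 0.50 (edgeR adjusted p = 0.783). An increase of up to 0.50 or a decrease of up to 0.36 on the log2 scale therefore lies within the error.

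miR-181b-5p was the next member in abundance. Control-labelled libraries 1, 2 and 3 had 1539, 2060 and 2063 CPM, and SCI-labelled libraries 1, 2 and 3 had 1965, 1841 and 2132 CPM. Control-labelled library 1 was the lowest, and the other 5 lay close together. The log2 change was 0.07, with a 95% interval of -0.36 to 0.49 (edgeR adjusted p = 0.781). Both abundant members were set slightly below 0 when the library total alone was used for scaling, with log2 changes of -0.03 for miR-181a-5p and -0.02 for miR-181b-5p.

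miR-181d-5p, from the chromosome 8 cluster, was at 330, 329 and 423 CPM in the control-labelled libraries 1, 2 and 3. In the SCI-labelled libraries it was at 602, 530 and 613 CPM. The groups did not overlap: the lowest SCI-labelled library was above the highest control-labelled one, which was library 3. Non-overlap was common in this table, as given above (51.3% of the tested rows). Means were 361 ± 53.8 and 582 ± 45.1 CPM (SD, n = 3 each), 1.61-fold higher in the SCI-labelled group (log2 0.69, SE 0.19, 95% interval 0.25 to 1.13; edgeR adjusted p = 0.0228). DESeq2 called it too (adjusted p = 0.00192), as it did 40.2% of all tested rows. It was higher under each of the 15 alternatives, but the call was lost in 5 of them. These were the library total as scaling (adjusted p = 0.0886), limma on log2(TPM + 1) (0.0751), and leaving out control-labelled library 2 (0.0723), SCI-labelled library 1 (0.0827) or SCI-labelled library 3 (0.0836).

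miR-181c-5p, the neighbour of miR-181d-5p on chromosome 8, was the scarcest member, with 78 to 370 reads per library. Control-labelled libraries 1, 2 and 3 had 21.0, 14.1 and 43.6 CPM, and SCI-labelled libraries 1, 2 and 3 had 37.9, 23.1 and 37.7 CPM. Control-labelled library 3 was the highest of all 6, above every SCI-labelled library, while libraries 1 and 2 of its group were the lowest. The log2 change was 0.32 with a 95% interval of -0.60 to 1.24 (edgeR adjusted p = 0.562). It was 0.75 by limma voom with quality weights, still short of the test (adjusted p = 0.0829), where 46.6% of rows passed. Without control-labelled library 3 it was 0.95 and passed the test (edgeR adjusted p = 0.0139), where 52.2% of the 634 rows tested passed and 24.0% were higher. 2 of the 4 members were then called. Library 3 was also the one with the most skeletal muscle miRNA, 37774 CPM summed over 4 rows (miR-1a-3p, miR-133a-3p, miR-133b-3p and miR-206-3p) against 8283 and 11916 CPM in control-labelled libraries 1 and 2 and 9817 to 20423 CPM in the SCI-labelled group. The part of that tissue in the value of miR-181c-5p was not tested.

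**Figure D1:**
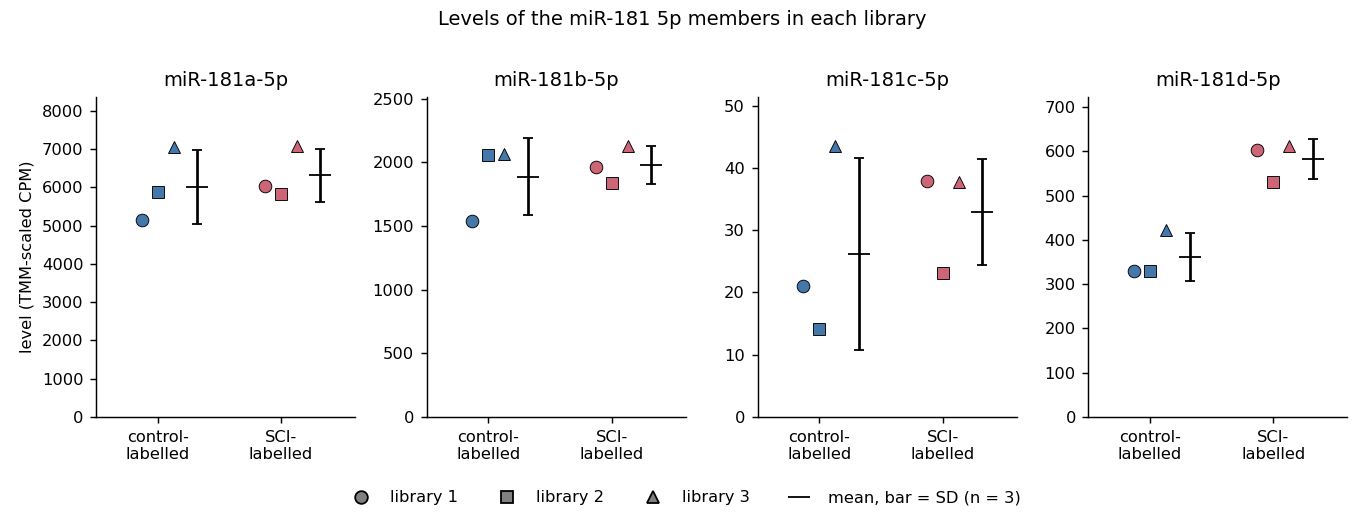
Levels of the 4 members in TMM-scaled CPM (vertical axes, linear and starting at 0) in the 3 control-labelled and 3 SCI-labelled libraries; symbols mark the library number, the horizontal mark is the mean and the bar the SD. miR-181d-5p lies at 329 to 423 CPM in the control-labelled and 530 to 613 CPM in the SCI-labelled libraries, while the groups overlap for the other members.

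Summed over the 4 members, the family reached 7026, 8273 and 9582 CPM in control-labelled libraries 1, 2 and 3. SCI-labelled libraries 1, 2 and 3 reached 8634, 8212 and 9875 CPM. It made up 0.665% to 1.11% of all counts. The group means were 8294 ± 1278 and 8907 ± 865 CPM (SD, n = 3 each), and the groups overlapped. miR-181a-5p held most of the family's reads, 72.6% ± 1.40 for the control-labelled group and 70.8% ± 0.999 for the SCI-labelled group (SD, n = 3 each), so the sum mainly reflects that member.

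In the make-up of the family, the groups were separate for 1 of the 4 shares, that of miR-181d-5p. In level, 51.3% of all tested rows did not overlap. The share of miR-181d-5p rests on the same reads as its edgeR call and is not a separate result. It was 4.70%, 3.97% and 4.41% of the 4 members' reads in control-labelled libraries 1, 2 and 3. In SCI-labelled libraries 1, 2 and 3 it was 6.97%, 6.45% and 6.21%. Every SCI-labelled share was above every control-labelled one, and the Wilson 95% interval of any share reached at most 0.416 points to either side, for counting error only. The means differed by 2.18 points (two-sided exact permutation p = 0.1, the smallest that 3 against 3 libraries can give; 0.4 after adjustment over the 4 shares). The shares of miR-181a-5p (exact p = 0.2), miR-181b-5p (0.9) and miR-181c-5p (0.7) overlapped.

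Set against its closest relative in sequence, miR-181d-5p had 21.5, 16.0 and 20.5 reads per 100 reads of miR-181b-5p in the control-labelled libraries. In the SCI-labelled libraries it had 30.6, 28.8 and 28.8. This ratio needs no scaling between libraries, but it uses the same miR-181d-5p reads again. Its groups did not overlap (exact permutation p = 0.1, the smallest possible, and 0.25 adjusted over 10 ratios). The ratio of miR-181b-5p to miR-181a-5p, which come from the same 2 clusters, was 31.4 ± 3.18 and 31.4 ± 1.29 per 100 (SD, n = 3 each). A test of unequal change among the 4 members, made in edgeR over the 50 seed families with at least 2 tested rows, was not passed (adjusted p = 0.286; 38.0% of families passed). Without control-labelled library 3 it was passed (edgeR adjusted p = 0.0108), as it was by 56.6% of the 53 families tested there.

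Within the chromosome 8 cluster the 5p arms of the adjacent hairpins differed widely in read count. miR-181c-5p gave 4.30 to 10.3 reads per 100 reads of miR-181d-5p over the 6 libraries. The control-labelled group averaged 6.98 ± 3.05 and the SCI-labelled group 5.60 ± 1.08 (SD, n = 3 each), and the groups overlapped. The 3p arms went the other way, with 1838 reads of miR-181c-3p and 6 of miR-181d-3p over the 6 libraries, so the 5p ratio is not that of the whole hairpins.

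The 3p arms, which are usually the passenger strands of these hairpins, separate the copies. miR-181a-1-3p had 16277 reads over the 6 libraries, against 2 reads of miR-181a-2-3p. miR-181b-1-3p had 930 reads and miR-181b-2-3p 22. The 3p reads of miR-181a and miR-181b thus came nearly all from the chromosome 1 names. miR-181d-3p had 0 reads in each control-labelled library, and SCI-labelled libraries 1, 2 and 3 had 3, 0 and 3. A count of 0 allows up to 0.408 to 0.539 CPM in the control-labelled libraries, computed from the library total without TMM scaling, so no fold is given.

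Of the 6 rows for 3p arms, 3 passed the filter on low counts and 1 of these, miR-181b-1-3p, differed between the groups by edgeR. It was at 25.0, 33.3 and 28.1 CPM in control-labelled libraries 1, 2 and 3, and at 14.0, 17.2 and 14.4 CPM in the SCI-labelled ones. The groups did not overlap, as for 51.3% of all tested rows, and the spread within each was small. Its reads ran from 111 to 239 per library. The SCI-labelled mean was 1.90-fold lower (log2 -0.92, SE 0.22, 95% interval -1.41 to -0.43; edgeR adjusted p = 0.0104), where 23.1% of all tested rows were lower. The call was lost without SCI-labelled library 1 (edgeR adjusted p = 0.0608) or 3 (0.0628), and it stood under the other 13 alternatives.

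miR-181a-1-3p, cut from the neighbouring hairpin, did not pass the test. Control-labelled libraries 1, 2 and 3 had 317, 265 and 432 CPM, and SCI-labelled libraries 1, 2 and 3 had 426, 342 and 399 CPM, a log2 change of 0.20 with a 95% interval of -0.33 to 0.73 (edgeR adjusted p = 0.515). For every 100 reads of miR-181a-1-3p there were 7.89, 12.6 and 6.51 reads of miR-181b-1-3p in the control-labelled libraries. In the SCI-labelled libraries there were 3.29, 5.03 and 3.61, with no overlap (exact permutation p = 0.1, the smallest possible, and 0.25 adjusted over 10 ratios). This ratio uses the same miR-181b-1-3p reads as its edgeR call. For miR-181c-3p, control-labelled libraries 1, 2 and 3 had 24.2, 29.9 and 61.4 CPM, and SCI-labelled libraries 1, 2 and 3 had 51.4, 36.9 and 39.4 CPM. Control-labelled library 3 was again the highest of the 6. Its log2 change was 0.14, with a 95% interval of -0.65 to 0.94 (edgeR adjusted p = 0.771). Without control-labelled library 3 it was 0.70 and passed (edgeR adjusted p = 0.0227), as its 5p arm did.

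**Figure D2:**
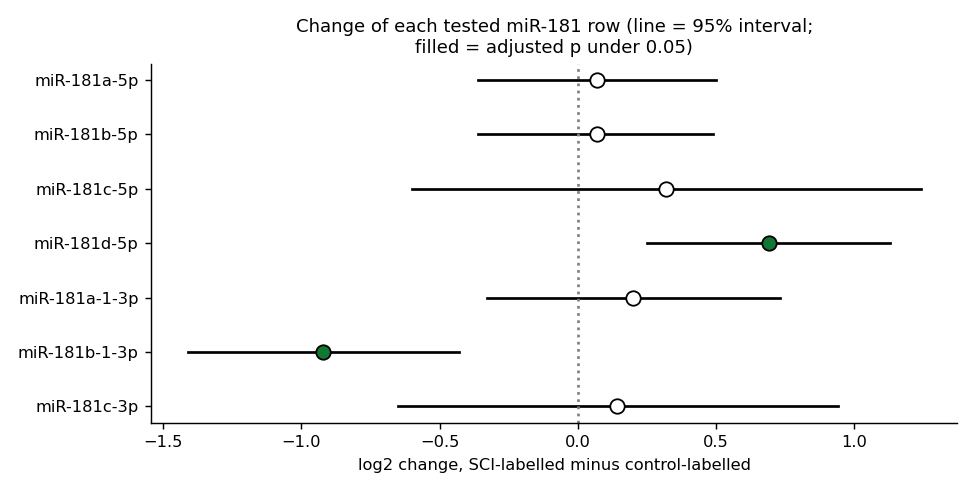
Log2 change (horizontal axis, SCI-labelled minus control-labelled) of the 7 tested miR-181 rows with 95% intervals as lines; filled points passed edgeR's test at an adjusted p under 0.05. miR-181d-5p (0.69) and miR-181b-1-3p (-0.92) passed, and the intervals of the other 5 rows include 0.

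The balance of the arms was tested next, because both arms of a hairpin start from the same transcript. The Mir181b-1 hairpin is printed with its 5p and 3p arms in capitals, since its 3p arm is the one that passed the test.
Mir181b-1: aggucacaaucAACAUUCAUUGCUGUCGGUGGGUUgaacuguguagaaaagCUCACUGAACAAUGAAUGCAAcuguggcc
For every 100 reads of miR-181b-5p there were 1.62, 1.62 and 1.36 reads of miR-181b-1-3p in control-labelled libraries 1, 2 and 3. In SCI-labelled libraries 1, 2 and 3 there were 0.712, 0.935 and 0.675. The lowest control-labelled ratio was above the highest SCI-labelled one, in a hairpin whose 5p arm did not pass the test. The exact permutation p of this ratio was 0.1, the smallest that 3 against 3 libraries can give, and 0.25 adjusted over 10 ratios. edgeR's test of unequal change between arms was passed for miR-181b (adjusted p = 0.00366), where 30.8% of the 201 hairpin names tested passed. It was lost with no filter on low counts (adjusted p = 0.0575). On simulated data, 13.2% of the calls of this test were false. The ratio and this test use the same miR-181b-1-3p reads as its edgeR call, so neither is a separate result. Because miR-181b-5p reads can also come from Mir181b-2, the ratio does not belong to Mir181b-1 alone.

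The arms of miR-181a and miR-181c showed no such difference that passed the test. miR-181a-1-3p had 5.60 ± 0.945 and 6.19 ± 0.770 reads per 100 reads of miR-181a-5p (SD, n = 3 each; edgeR arm usage adjusted p = 0.720). For miR-181c the 3p arm was the more abundant in all 6 libraries, with 105 to 212 reads per 100 reads of the 5p arm (arm usage adjusted p = 0.896 by edgeR). miR-181c-3p had 7.64 to 14.2 reads per 100 reads of miR-181a-1-3p, from which it differs by 2 substitutions. The part of misassigned reads in that level was not tested.

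**Figure D3:**
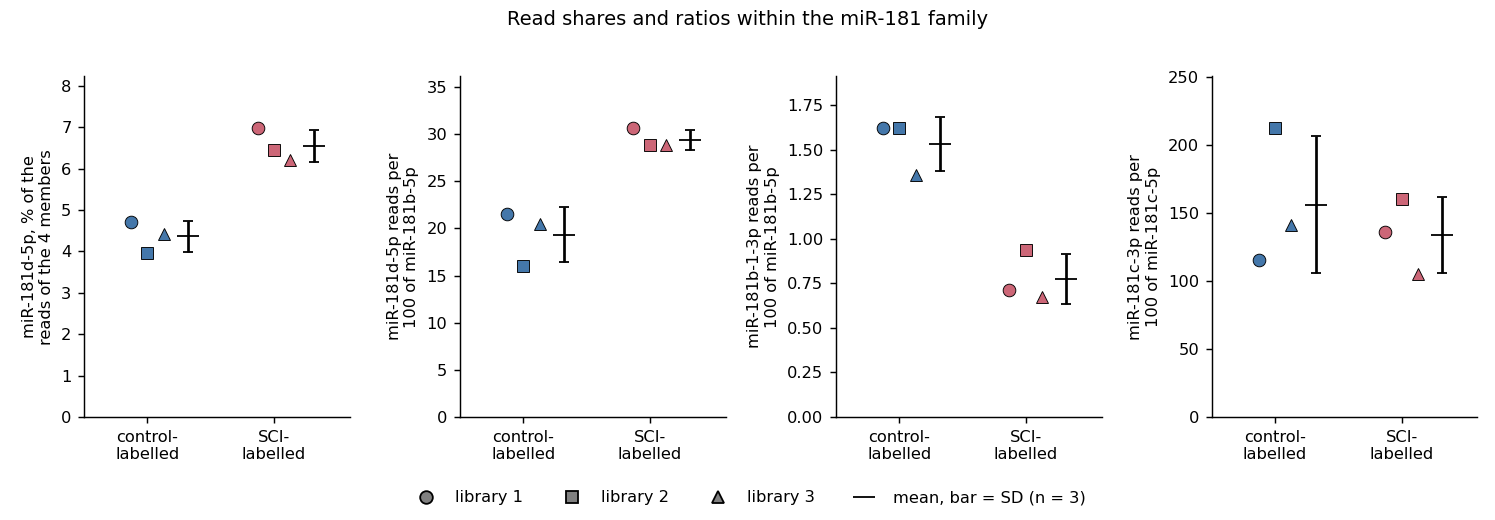
Share of miR-181d-5p among the reads of the 4 members (percent) and 3 read ratios per 100 reads (vertical axes, linear and starting at 0) for each library; symbols mark the library number, the horizontal mark is the mean and the bar the SD. The groups are separate for miR-181d-5p and for miR-181b-1-3p against miR-181b-5p, and overlap for the arms of miR-181c, where every library is above 100.

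The rows most like each member were picked from the same 6 libraries, as a description. Group differences are part of the profiles compared, so the changes of picked rows resemble the member's by construction. Likeness was taken as the root mean square difference between log2 profiles over the 6 libraries, each centred on its own mean, among 265 rows of at least 50 CPM. miR-181a-5p and miR-181b-5p were close to each other (0.089), and their 3 nearest rows were the same, miR-487b-3p, miR-337-5p and miR-434-3p, at 0.069 to 0.109. None of these 3 passed edgeR's test (log2 changes of 0.08 to 0.17). miR-181d-5p was nearest to miR-127-3p (0.078), miR-411-5p (0.097) and the neural miRNA miR-9-5p (0.117), which were higher in the SCI-labelled libraries by log2 0.77, 0.69 and 0.58. miR-181c-5p was nearest to miR-151-5p (0.142), miR-344-3p (0.176) and miR-136-3p (0.244), each with its control-labelled library 3 well above libraries 1 and 2. The difference between miR-181d-5p and miR-181b-5p was 0.337.

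Markers of cell types were read beside these values, since a higher level in cord tissue can come from more cells of a type or from more RNA per cell, which cannot be told apart in bulk samples. The neuron list (miR-124-3p, miR-128-3p, miR-129-5p and 6 others) went in the direction of miR-181d-5p. Its 9 rows summed to 33028 to 38611 CPM in SCI-labelled and 13300 to 16460 CPM in control-labelled libraries, with 4 of 9 rows higher by edgeR and 0 lower, beside 16.3% higher and 23.1% lower over all tested rows. The lymphocyte list, with miR-150 and miR-342, summed to 472 to 588 CPM in SCI-labelled and 643 to 656 CPM in control-labelled libraries, with 1 of 4 rows lower, near the 23.1% over all tested rows, and none at 0 in all libraries. The myeloid and pan-leukocyte list summed to 156 to 269 against 1535 to 2793 CPM, with 5 of 5 tested rows lower, and the erythroid list to 2481 to 5231 against 9426 to 32718 CPM, with 4 of 4 lower, against the same 23.1%. The summed levels of the lymphocyte, myeloid and erythroid lists were all lower with no overlap. Of the tested rows taken singly, 51.3% did not overlap in either direction. miR-181b-1-3p was also called lower by edgeR, as were 23.1% of all tested rows. By sign alone, 47.9% of all tested rows had a log2 change above 0, so sharing the lower direction is common. The oligodendrocyte list (11804 to 12570 against 10222 to 13828 CPM) and the endothelial list (16412 to 18789 against 12211 to 28514 CPM) overlapped, with no row of either past edgeR's test. The part of any of these cell types in the miR-181 values was not tested.

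**Figure D4:**
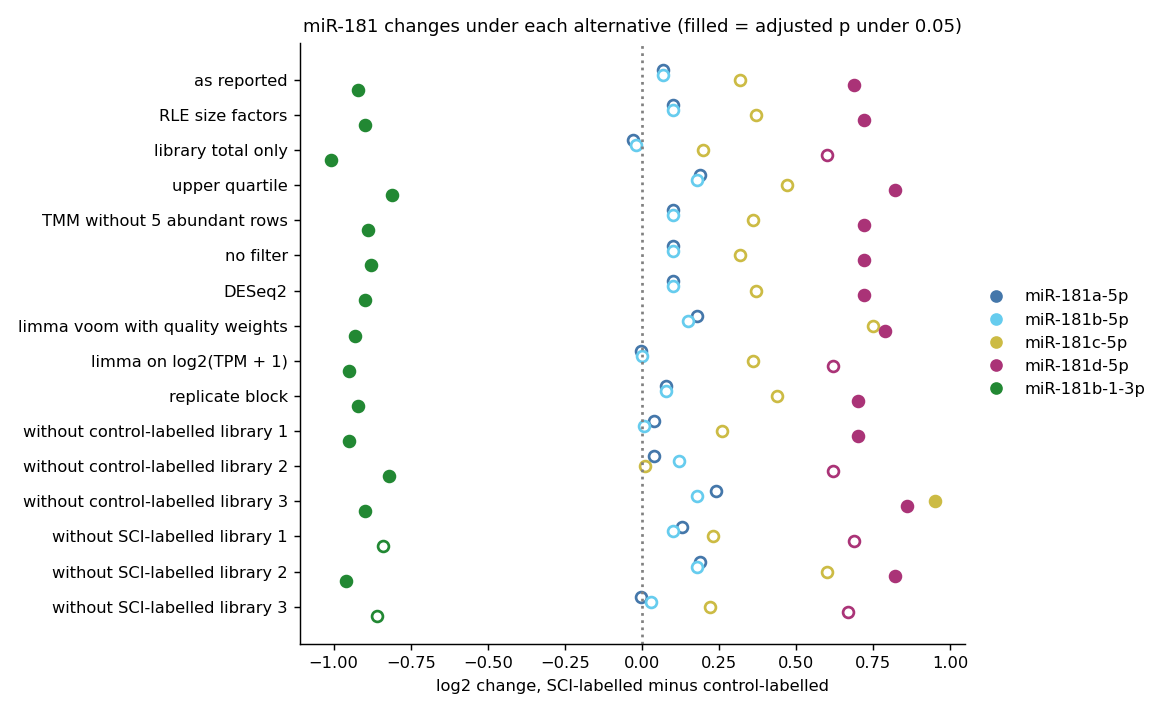
Log2 change (horizontal axis, SCI-labelled minus control-labelled) of the 4 members and miR-181b-1-3p as reported and under 15 alternatives (vertical axis); filled points have an adjusted p under 0.05. miR-181d-5p stays between 0.60 and 0.86 and miR-181b-1-3p between -1.01 and -0.81, while miR-181c-5p runs from 0.01 to 0.95 with 1 filled point, without control-labelled library 3.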

How the data were processed

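Small RNA libraries were prepared from 3 µg of total RNA each with NEBNext reagents, per the labels' protocols. The authors deposited whole-number read counts per miRNA for each library, without normalization, and TPM values, which equal CPM computed from the column totals (largest difference 2.74e-05). Bowtie and mm10 are named in the submitters' processing notes. Its version, the mismatches allowed and the handling of reads that match several miRNAs are not stated there. Each column was tied to its sample by the name in that sample's description.

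The counts were fitted with edgeR 4.0.16 (R 4.3.3): filterByExpr with a minimum count of 10 (614 of 1482 rows kept, 99.98% of counts), TMM, and a robust quasi-likelihood fit on group alone. Benjamini-Hochberg adjustment covered all tested rows, with a threshold of 0.05. Intervals are the log2 change ± t quantile × SE, with the SE taken as the size of the change over the square root of F. Unequal change between arms, and between members of a seed family (added after seeing the data), was tested with diffSpliceDGE. Shares and ratios were compared by exact two-sided permutation in scipy 1.17.1. Named miRNAs are the members, all miR-181 3p rows, the 3 rows most like each member, and miR-21a-5p and miR-223-3p for the labels; other markers are given as lists. Member rows were found by name, but the choice of this family, the lists and the tests was made with earlier results of these data known.

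Alternatives were RLE, upper quartile or library total scaling, TMM without 5 abundant rows, no filter, DESeq2 1.42.0, limma 3.58.1 (voom with quality weights, and log2(TPM + 1)), the replicate number as a block, and each library left out. On simulated data edgeR recovered 58.8% of rows changed 2-fold and 100% of those changed 4-fold, with 3.25% of calls among unchanged rows (598 rows kept). The arm usage test recovered 42.7% and 93.5% of hairpins, with 13.2% of calls false. The seed family test recovered 64.5% and 99.0% of families, with 6.65% false. In both usage tests an unadjusted p under 0.05 came too often in unchanged groups (10.2% and 12.9%), so their p-values run somewhat low.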

Additional observations from a re-analysis of the deposited data

How the results depend on the processing

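miR-181a-5p, miR-181b-5p and miR-181c-5p stayed short of the test under all 15 alternatives, except miR-181c-5p without control-labelled library 3 (log2 0.95). Signs of the abundant members near 0 turned: miR-181a-5p was at -0.03 by the library total, -0.0025 by limma on log2(TPM + 1) and -0.0033 without SCI-labelled library 3, and miR-181b-5p at -0.02 by the library total. miR-181c-3p turned to -0.03 and -0.02 without control-labelled libraries 1 and 2. Leaving out 1 library at a time gave log2 changes of -0.0033 to 0.24 for miR-181a-5p, 0.01 to 0.18 for miR-181b-5p, 0.01 to 0.95 for miR-181c-5p and 0.62 to 0.86 for miR-181d-5p. It gave 0 to 2 called members, 0 to 2 called 3p rows, 141 to 331 called rows in all, and seed family adjusted p-values of 0.0108 to 0.634 in edgeR. miR-181d-5p lost its call by the library total (log2 0.60) and by limma on log2(TPM + 1) (0.62), leaving 0 called members in each. miR-181b arm usage lost its call with no filter (edgeR adjusted p = 0.0575). In that setting miR-181b-2-3p, with 1 to 5 reads per library, joined the rows compared under that name, so the comparison was not the same. The cause was not tested in any of these. Upper quartile scaling moved the median log2 change of all tested rows from -0.07 to 0.04. The share of miR-181d-5p was higher by 1.97 to 2.35 points without any 1 library.

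The replicate numbers are not said to pair mice, and libraries of the same number did not deviate together (correlations of -0.257, 0.172 and -0.178). With the replicate block miR-181d-5p had a log2 change of 0.70 (edgeR adjusted p = 0.0481), miR-181b-1-3p -0.92 (0.0268) and arm usage of miR-181b 0.0164; 190 rows were called in all, against 242, and no miR-181 call changed. Depth limits miR-181c-5p (78 to 370 reads), the called row miR-181b-1-3p (111 to 239 reads) and the 3p rows of miR-181a-2, miR-181b-2 and miR-181d (0 to 5 reads).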
